A study of Homo sapiens with 6 samples.

Results

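The genes examined were SUMO2 and SUMO3, which encode small ubiquitin-like modifiers, and SAE1 and UBA2, which encode the subunits of the enzyme that activates them. They were 4 of the 10072 genes of a table of long-read counts. They were chosen by name, with their counts in this same comparison already known, so their values are given as a description and not as a test. The cells were Calu-6, an established human lung cancer line, labelled wild type and transfected for 48 h with 10 nM of either a non-silencing siRNA (siControl, 3 libraries) or an siRNA to the exon 1 and exon 5 junction of the TERT splice variant Delta 2-4 (siDelta2-4, 3 libraries). Polyadenylated RNA was amplified as cDNA and sequenced on an Oxford Nanopore flow cell, and the comparison asks which RNAs differ once this variant is targeted. The names of the count columns include Empty, and the study's methods for this sequencing describe Calu-6 lines that stably carry an empty Flag-V5 vector, a detail the labels do not give. TERT itself was not analysed here, so the knockdown was not checked in these counts. The study calls the libraries of a group biological replicates, but no source used here says that they came from separate cultures, and the p-values measure the spread between these libraries.

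SUMO proteins are attached to lysines of other proteins, many of them nuclear, and are known for regulating transcription, DNA repair and chromosome segregation. The heterodimer of SAE1 and UBA2 activates the modifier (E1), a carrier enzyme takes it over (E2), ligases such as the PIAS proteins help to place it (E3), and SENP proteases mature it and take it off again. SUMO2 and SUMO3 are closely related, and both can form chains on their targets.

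The coding sequences show how the modifiers and their copies are related over that stretch. They do not alone decide how well long reads tell them apart, since 288 of the 3166 bases of SUMO2-202 are coding and the rest was not aligned. SUMO2 (ENSG00000188612.12) lies on the minus strand of chr17:75165586-75182959, SUMO3 (ENSG00000184900.16) on the minus strand of chr21:44805617-44818779, SAE1 (ENSG00000142230.13) on the plus strand of chr19:47113274-47210636 and UBA2 (ENSG00000126261.13) on the plus strand of chr19:34428352-34471251, all in GRCh38 with the Gencode 44 annotation. Each sequence below is from Gencode 44. In SUMO2-202, the main SUMO2 transcript, capitals mark the third exon, which SUMO2-201 skips. In the others, capitals mark bases that differ from SUMO2-202, or have no partner there, in a global alignment.
SUMO2-202: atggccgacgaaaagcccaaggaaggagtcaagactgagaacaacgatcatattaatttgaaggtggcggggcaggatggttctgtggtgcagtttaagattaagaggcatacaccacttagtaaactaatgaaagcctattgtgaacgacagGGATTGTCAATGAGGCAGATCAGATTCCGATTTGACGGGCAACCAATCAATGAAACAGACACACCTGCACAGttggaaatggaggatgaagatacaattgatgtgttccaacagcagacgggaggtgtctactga
SUMO3-201, first 300 bases: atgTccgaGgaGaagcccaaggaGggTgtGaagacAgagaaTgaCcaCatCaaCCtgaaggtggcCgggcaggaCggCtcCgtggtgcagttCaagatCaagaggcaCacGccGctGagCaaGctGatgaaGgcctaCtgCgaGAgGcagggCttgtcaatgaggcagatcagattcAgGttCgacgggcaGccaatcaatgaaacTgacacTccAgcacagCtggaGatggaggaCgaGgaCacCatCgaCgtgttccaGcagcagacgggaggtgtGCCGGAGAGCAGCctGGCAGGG
SUMO2P1-206: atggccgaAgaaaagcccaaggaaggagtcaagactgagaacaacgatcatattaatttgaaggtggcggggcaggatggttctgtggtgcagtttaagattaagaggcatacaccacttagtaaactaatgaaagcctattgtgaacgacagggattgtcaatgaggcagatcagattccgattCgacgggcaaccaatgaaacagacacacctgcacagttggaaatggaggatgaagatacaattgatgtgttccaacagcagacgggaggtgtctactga
SUMO2P21-201: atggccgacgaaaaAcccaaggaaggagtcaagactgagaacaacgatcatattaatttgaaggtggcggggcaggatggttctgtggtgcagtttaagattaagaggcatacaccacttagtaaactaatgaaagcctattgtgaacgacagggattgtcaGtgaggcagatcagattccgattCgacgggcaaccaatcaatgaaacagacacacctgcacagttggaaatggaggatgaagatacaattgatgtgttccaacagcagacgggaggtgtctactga

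The coding sequence of SUMO2-202 held 288 bases with its stop codon, or 95 codons before the stop, and that of SUMO3-201 held 312 bases, or 103 codons. Over 285 aligned bases SUMO3 was identical to SUMO2 at 82.1%, with 51 mismatches. The processed pseudogenes SUMO2P1 (chr6:29636060-29636343) and SUMO2P21 (chrX:115718942-115719229) were far closer to SUMO2, with 2 mismatches in 284 aligned bases and 3 in 288. SUMO2P1 also lacked 4 bases of the SUMO2 coding sequence. The models of these copies were single exons of 284 and 288 bases, the size of the coding sequence alone, against 3166 bases for SUMO2-202.

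The 6 libraries held between 1037468 and 1309241 counts, and within each group they are given below in the order of highest, middle and lowest total. CPM is the count scaled to a library of 1000000 counts, with TMM factors. Of the epithelial markers, KRT8 had 114 to 171 counts in each library and KRT18 had 162 to 231. KRT7 had 3 to 11 counts and EPCAM 1 to 3 in each library, KRT19 had 1 over all libraries, and CDH1 was not analysed here. The mesenchymal marker VIM had 130 to 206 counts in each library, while FN1 had 2 over all libraries and CDH2 was not analysed here. The macrophage marker CD68 had 1 to 3 counts in each library, and the blood markers PTPRC and CD3E were not analysed here. The lung markers NKX2-1, SFTPB and SFTPC were not analysed here.

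SUMO2 was the most counted of the 4 genes and was higher in siDelta2-4. Its counts were 544, 578 and 577 in siControl and 1042, 938 and 906 in siDelta2-4. On the CPM scale these were 525, 549 and 546 against 790, 752 and 838, or 540 ± 13.0 and 793 ± 43.2 (SD, n = 3 each). The groups did not overlap, which also held for 26.2% of the 3888 genes tested. The lowest siDelta2-4 library stood well above the highest siControl library. The fitted log2 fold change was 0.56 ± 0.08 (SE), a 1.47-fold difference. As these are bulk libraries, more SUMO2 RNA per cell and more cells carrying it cannot be told apart.

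**Figure D1:**
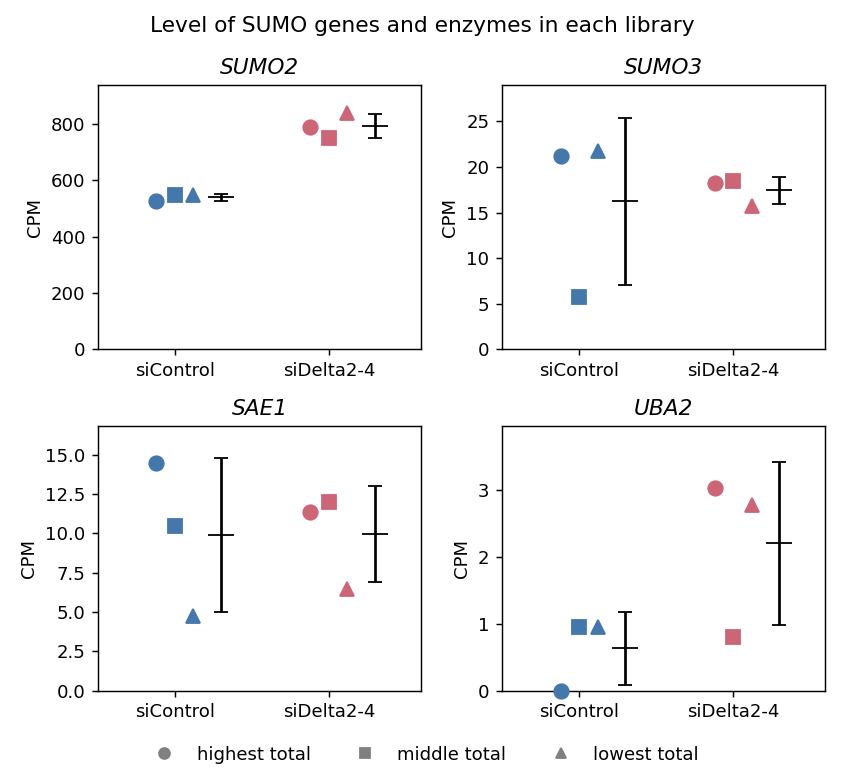
Level in CPM (vertical axes, each starting at 0) of SUMO2, SUMO3, SAE1 and UBA2 in the siControl and siDelta2-4 libraries. Points are single libraries, with the shape giving the rank of the library total, and the bars beside them are the mean ± SD (n = 3). SUMO2 sits higher in all 3 siDelta2-4 libraries, while the groups overlap for SUMO3, SAE1 and UBA2.

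SUMO3 gave far fewer reads. Its counts were 22, 6 and 23 in siControl and 24, 23 and 17 in siDelta2-4. In CPM the siControl libraries stood at 21.2, 5.70 and 21.8 and the siDelta2-4 libraries at 18.2, 18.4 and 15.7. The siControl library with the middle total was thus the lowest of all 6, and the groups overlapped. Its 6 counts carry an exact Poisson 95% interval of 2.20 to 13.1, which lies below the 22 and 23 counts of the other two siControl libraries. Such intervals cover counting error alone, and PCR copies of a molecule are not separated in these counts. The log2 fold change was 0.11 ± 0.33 (SE), and without that library it was -0.29 ± 0.30.

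SAE1, the smaller subunit of the activating enzyme, was counted 15, 11 and 5 times in siControl and 15, 15 and 7 times in siDelta2-4. Its levels of 9.89 ± 4.90 and 9.95 ± 3.03 CPM (SD, n = 3 each) overlapped fully, and in both groups the library with the lowest total was the lowest. The log2 fold change was 0.04 ± 0.38 (SE). It ranged from -0.31 when the siControl library of lowest total was left out to 0.39 when that of highest total was, so these counts set no direction for SAE1.

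UBA2, the catalytic subunit of the same enzyme, was close to the floor of detection, its siControl libraries holding 0, 1 and 1 counts and its siDelta2-4 libraries 4, 1 and 3. It was the single member of the 4 that did not pass the filter on low counts. A count of 0 in the siControl library with the highest total allows a level of up to 2.90 CPM (3 counts, a one-sided 95% limit on counting error). Summed over libraries there were 2 counts against 8, a ratio of 3.45 after scaling, with an exact 95% counting interval from 0.688 to 33.3. Every model in the deposited counts had reads in siDelta2-4, so a UBA2 model read in siControl alone would be missing from these sums. The interval does not cover that selection, and the ratio is no estimate of a difference. A difference in UBA2 was not detectable at this depth.

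Of the 3 members that passed the filter, SUMO2 alone (1 gene) was past the threshold of 0.1 for the adjusted p of edgeR, beside 13.0% of the 3888 genes tested (504 genes), with 7.00% higher and 5.97% lower in siDelta2-4. The CPM of the groups did not overlap for 26.2% of all tested genes. Nothing is read from this count, since the members were chosen with these values known. The median log2 fold change of all tested genes was 0.03. Among the 2367 annotated genes tested, SUMO2 ranked 210 by log2 fold change and 235 by mean CPM. The shares above also cover unannotated genes, whose models all had at least 5 counts in every siDelta2-4 library. Shares over annotated genes alone are not given here.

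Per kilobase of transcript, SUMO2 stood far above the other members in the same libraries. Its level was 172 CPM per kb in siControl and 253 in siDelta2-4. SUMO3 had 9.33 and 10.0 CPM per kb, SAE1 3.94 and 3.96, and UBA2 0.257 and 0.896. A long read is counted once whatever its length, so the division by length is a choice of scale. It lowers SUMO2, of 3140 bases, more than SUMO3, of 1740. Without it the means of SUMO2 and SUMO3 were 540 and 16.2 CPM in siControl and 793 and 17.4 CPM in siDelta2-4. The order of the 3 members below SUMO2 is a description of means, and in the siControl library with the middle total SUMO3, at 5.70 CPM, lay below the 10.4 CPM of SAE1. Of the summed CPM per kb of SUMO2 and SUMO3, SUMO2 made up 94.9% ± 2.84 (SD, n = 3) in siControl and 96.2% ± 0.500 (n = 3) in siDelta2-4. Its share was 93.2%, 98.2% and 93.3% in the siControl libraries and 96.0%, 95.8% and 96.7% in the siDelta2-4 libraries. The siControl range contains all the siDelta2-4 values, the 98.2% being that of the library with 6 SUMO3 counts.

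All the transcript models of the 4 genes were annotated ones. SUMO2 had 3 models, SAE1 and UBA2 had 2 each, and SUMO3 had 1. SUMO2-202 (ENST00000420826.7) has 4 exons, of which the fourth is 2816 bases long and holds 63 coding bases. SUMO2-201 (ENST00000314523.7, 809 bases) skips the third exon, the 72 bases in capitals above (chr17:75174752-75174823), and so carries a coding sequence of 216 bases. SUMO2-203 (ENST00000578238.2, 490 bases) begins at another first exon and codes from within exon 2, for 159 bases.

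Nearly all SUMO2 reads fell on SUMO2-202 in every library. It was counted 538, 569 and 566 times in siControl and 1033, 928 and 903 times in siDelta2-4. In CPM over transcript models it went from 527 ± 18.7 to 794 ± 40.3 (SD, n = 3 each), a log2 fold change of 0.60 ± 0.08 (SE). The groups did not overlap, which also held for 26.2% of all genes tested, and the share over models is not given here. The share of SUMO2-202 in the SUMO2 counts was 98.9%, 98.4% and 98.1% in siControl and 99.1%, 98.9% and 99.7% in siDelta2-4, or 98.5% ± 0.403 and 99.2% ± 0.380. The siDelta2-4 shares all lay above the siControl ones, though the nearest libraries of the groups were both at 98.9%, and the means differed by 0.77 percentage points. Past that same threshold were 6.91% of the 6768 models in the edgeR fit, with 3.95% higher in siDelta2-4.

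The exon-skipping SUMO2-201 took 4, 8 and 4 reads of the siControl libraries and 7, 7 and 2 of the siDelta2-4 libraries, and the short SUMO2-203 had 2, 1 and 7 against 2, 3 and 1. Both overlapped between the groups, and neither passed the filter on low counts. Their shares of the SUMO2 counts were 0.938% ± 0.387 and 0.546% ± 0.284 for SUMO2-201, and 0.585% ± 0.553 and 0.207% ± 0.106 for SUMO2-203 (SD, n = 3 each). The higher SUMO2 count was thus almost entirely a higher count of SUMO2-202.

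**Figure D2:**
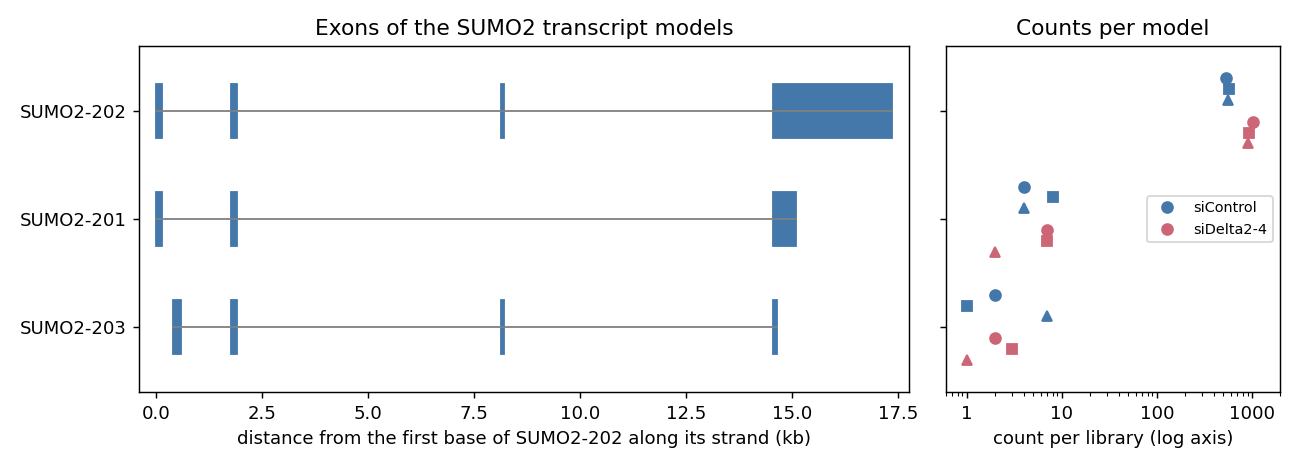
Exons (boxes) of the 3 SUMO2 transcript models against distance in kb from the first base of SUMO2-202, and the counts of each model per library on a log axis, with shapes for highest (circle), middle (square) and lowest (triangle) total. SUMO2-202 lies at 538 counts or more in every library and higher in siDelta2-4, and the other models stay at 1 to 8 counts with the groups mixed.

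The other members gave little to compare between models. Every SUMO3 read was on SUMO3-201 (1740 bases). SAE1-201 held all SAE1 counts in 5 libraries and 6 of 7 in the siDelta2-4 library with the lowest total, the remaining count being on SAE1-202. UBA2-201, of 4005 bases and 17 exons, and the 5-exon UBA2-208, of 910 bases, had 5 counts each over all libraries.

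The near-identical copies of SUMO2 could hold some of its reads, or it some of theirs. SUMO2P1 was counted 6, 10 and 10 times in siControl and 12, 9 and 12 times in siDelta2-4, and SUMO2P21 had 6, 1 and 6 against 11, 5 and 5. Set against the 4585 counts of SUMO2 they were few, at 59 counts for SUMO2P1 and 34 for SUMO2P21. SUMO2P1 did not pass the test (log2 fold change 0.13 ± 0.37 SE, edgeR adjusted p = 0.872). JPT1, a same-strand neighbour, overlaps the last exon of SUMO2 over 2696 bases, and its 1065 counts gave a log2 fold change of 0.02 ± 0.11 (edgeR adjusted p = 0.956). ZC3H4 overlaps SAE1 by 503 bases on the opposite strand and was not analysed here. Unannotated genes on opposite strands have no coordinates in these data, and their part in the SUMO2 count was not tested.

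The rest of the pathway was thinly counted. Of the 25 other pathway genes reported here, 17 had no value in the deposited counts. Every model kept there had reads in siDelta2-4, so their absence does not show that they were unread. Another 8 had counts, of which 3 passed the filter on low counts. Of these 3, 0 were called in edgeR and 0 had an unadjusted p under 0.05 in edgeR or DESeq2, where 13.0% of all genes tested were called and 23.1% (900 genes) had such a p in edgeR. DESeq2 gave an adjusted p to 1 of the 3, which was not called. With 3 genes, a count of 0 is close to those shares. Their log2 fold changes lay between 0.06 and 0.14, with a median of 0.10 beside 0.03 for all genes tested. With the trend on transcript length removed, as given below, all 3 were negative and within their SE. Among the ligases, NSMCE2, an E3 of the SMC5/6 complex, was the only one tested. It had 11, 16 and 12 counts in the siControl libraries and 16, 11 and 20 in the siDelta2-4 libraries, which overlapped, and stood at 0.06 ± 0.33 (SE, edgeR adjusted p = 0.941). PIAS1 and ZNF451 had 12 or fewer counts over all libraries. No protease passed the filter: DESI1 had 3 to 8 counts in each library, and SENP2 and SENP5 had 0 or 1. The partners of SUMO-targeted ubiquitin ligases that were tested were UBE2N, which builds K63-linked ubiquitin chains, at 0.14 ± 0.15 (adjusted p = 0.623), and UFD1, a cofactor of the VCP segregase, at 0.10 ± 0.25 (adjusted p = 0.860).

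Of 17 known SUMO substrates on the list, 3 passed the filter on low counts. Of these, 0 were called in edgeR and 0 had an unadjusted p under 0.05 in either tool, beside the same 13.0% and 23.1% of all genes, and DESeq2 called 0 of the 1 to which it gave an adjusted p. HDAC1, a histone deacetylase, had 15, 16 and 7 counts against 24, 26 and 17, or 0.60 ± 0.32 as a log2 fold change with its SE (edgeR adjusted p = 0.255). In CPM the groups did not overlap for HDAC1, beside 26.2% of all genes tested, and they overlapped for HNRNPC and PCNA. HNRNPC, an RNA-binding protein, was at 0.19 ± 0.13 (adjusted p = 0.388), and PCNA, the replication clamp, at 0.09 ± 0.21 (adjusted p = 0.835). The other 11 substrates with counts, among them RANGAP1 and PML, had 31 or fewer over all libraries.

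The other ubiquitin-like systems give the nearest comparison. Of 20 genes on that list, 9 were tested. Of these, 0 were called in edgeR, beside 13.0% of all genes, and 0 had an unadjusted p under 0.05 in either tool, beside 23.1% in edgeR. DESeq2 called 0 of the 4 to which it gave an adjusted p. In a list of 9 genes these counts do not set it apart from all genes. Their median log2 fold change was -0.05, with 6 of 9 negative. Of the 3 most counted genes, chosen after their values were seen, NEDD8, the modifier of cullins, was at -0.09 ± 0.11 (SE, edgeR adjusted p = 0.668), UBL5, which acts in splicing, at -0.10 ± 0.09 (adjusted p = 0.553) and FAU, a ubiquitin-like fusion of a ribosomal protein, at -0.03 ± 0.08 (adjusted p = 0.870). In siControl these 3 stood at 278, 437 and 2119 CPM, and their SEs were close to that of SUMO2. Their transcripts were short, at 618, 426 and 511 bases by the count-weighted mean, against 3140 for SUMO2. The log2 fold changes above carry the trend on length that is described below. ATG12 and ATG3 of the autophagy conjugation system were lowest, at -0.34 ± 0.19 (adjusted p = 0.305) and -0.44 ± 0.33 (adjusted p = 0.443). In CPM the groups did not overlap for ATG12 and overlapped for ATG3. Whether SUMO2 differed from these modifiers was not tested, because SUMO2 was chosen on this contrast.

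**Figure D3:**
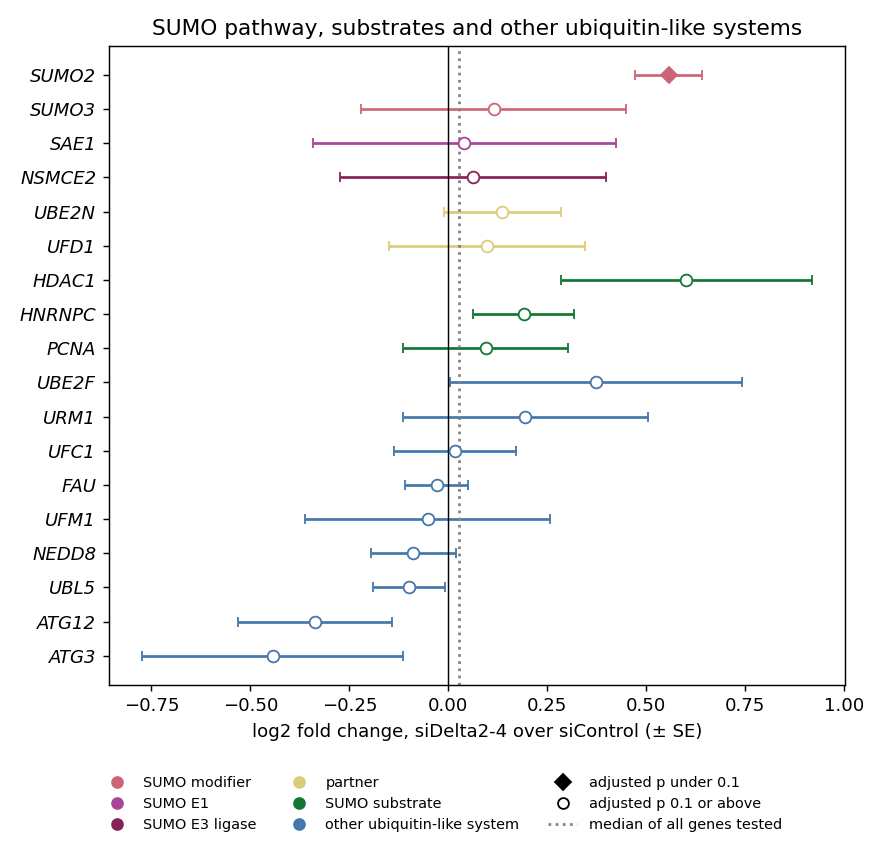
Log2 fold change of siDelta2-4 over siControl with its SE (horizontal bars) for the tested genes of the SUMO pathway reported here, SUMO substrates and other ubiquitin-like systems. A filled diamond has an adjusted p under 0.1 in edgeR and the dotted line is the median of all genes tested. SUMO2, at 0.56, is the filled one, and it was chosen with its values in this contrast known. The substrate HDAC1 is an open circle at 0.60 with a wider SE, and the other ubiquitin-like genes are open circles from -0.44 to 0.37.

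Transcript length moved with the comparison and bears on SUMO2, whose reads come from a transcript of 3140 bases by the count-weighted mean. The smoothed trend on length, as a log2 deviation at that length, was -0.13, -0.15 and 0.01 in the siControl libraries and 0.06, 0.12 and 0.09 in the siDelta2-4 libraries. The 199 other annotated genes of like length (2512 to 3925 bases) had a median log2 fold change of 0.18, 132 of them were positive, and 25 were above SUMO2. With the trend removed, SUMO2 was at 0.37 ± 0.07 (SE), with the same direction. The log2 fold changes of SUMO3 and SAE1 turned to -0.05 ± 0.32 and -0.14 ± 0.39. For genes that are no member, this fit was added after seeing the data. NEDD8, UBL5 and FAU were then at 0.02 ± 0.09, 0.02 ± 0.08 and 0.08 ± 0.06. ATG12 and ATG3 stayed lowest of their list, at -0.52 ± 0.18 and -0.59 ± 0.32. NSMCE2, UBE2N and UFD1 were at -0.09 ± 0.33, -0.03 ± 0.14 and -0.07 ± 0.22. The substrates HDAC1, HNRNPC and PCNA were at 0.42 ± 0.31, 0.01 ± 0.11 and -0.07 ± 0.19.

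**Figure D4:**
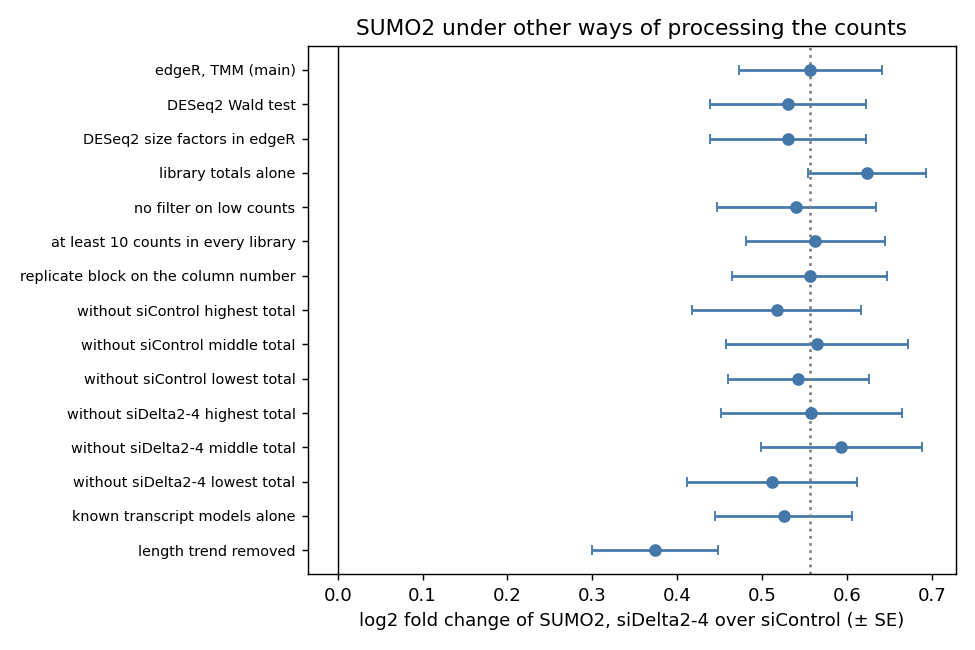
Log2 fold change of SUMO2 with its SE (horizontal axis) under the main fit and 14 other ways of processing the counts. The fits that leave out 1 library lie between 0.51 and 0.59, scaling by library totals alone gives the highest value (0.62) and removal of the length trend the lowest (0.37).

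The genes whose log2 CPM followed SUMO2 most closely over the 6 libraries were sought among 2220 annotated genes with a mean of at least 10 CPM. They were SDHAF3, an assembly factor of succinate dehydrogenase, with r = 0.990, and ENSG00000224738, with r = 0.989. SDHAF3 went from 64.6 ± 1.05 to 83.9 ± 1.29 CPM and ENSG00000224738 from 29.9 ± 3.33 to 63.3 ± 3.54 CPM (SD, n = 3 each). In all, 76 genes had r above 0.9 with SUMO2, over points that share libraries and depth. The SUMO2 values fall into separate levels by group, so a gene that is also higher in siDelta2-4 can reach a high r by that alone. SUMO3 was followed most closely by UQCRC2, a core subunit of respiratory complex III (r = 0.994), and GLMP (r = 0.979), which had siControl SDs of 9.21 and 8.31 CPM against 0.889 and 0.876 in siDelta2-4. SAE1 was followed most closely by PHF1 (r = 0.987) and ENSG00000285750 (r = 0.959).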

How the data were processed

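The authors deposited, for each transcript model, the raw count of long reads in each PCR-cDNA library. Per the submitters' processing notes and the methods, reads were aligned to GRCh38.p14 with minimap2 2.14, handled with SAMtools 1.13, corrected with TranscriptClean and annotated with TALON on Gencode 44, and models were filtered at 5 reads in 3 samples. In the deposited table the unannotated models met this minimum, whereas 11698 of the 15074 annotated models, several of the members' own among them, did not. All 6398 unannotated models had at least 5 counts in every siDelta2-4 library, and 0 models had none in siDelta2-4, so the table was shaped by that group. Depth ran from 1037468 to 1309241 counts per library. The siRNA in a column's name gave its group, and each library is called by the rank of its total.

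Counts were summed per gene identifier. Genes and models were tested with edgeR 4.0.16 (limma 3.58.1, R 4.3.3): filterByExpr, TMM, a two-sided quasi-likelihood test of the 2 groups and Benjamini-Hochberg adjustment over all features tested, with calls at an adjusted p under 0.1. The SE is the log2 fold change over the square root of F. Log2 CPM used a prior count of 2. Known transcript models were taken from Gencode 44 sequences and aligned globally in coding sequence. The length trend was a loess fit per library (span 0.4). Alternatives were DESeq2 1.42.0, other scalings and filters, a block, known models alone, the length trend, an adjusted p under 0.05 and each library left out; known models and length for genes that are no member were added after seeing the data. Scripts were tested on simulated counts. Named genes were the members, the pathway lists with counts, copies, overlapping genes and the 2 genes most like each tested member; the members and lists were chosen with earlier results of these data known. Some genes of the pathway are not reported here and were left out of the list counts.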

Additional observations from a re-analysis of the deposited data

How the results depend on the processing

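SUMO2 kept the direction of its log2 fold change under every alternative run, while SUMO3 and SAE1 changed sign within their SE. The log2 fold change of SUMO2 (0.56) was 0.62 with library totals as the only scaling and 0.37 with the length trend removed. It lay from 0.51 to 0.59 when each library was left out. SUMO3 then ran from -0.29 to 0.37 and SAE1 from -0.31 to 0.39. The difference in the share of SUMO2-202 ran from 0.56 to 0.98 percentage points.

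Of the SUMO pathway, substrate and ubiquitin-like genes reported here that are no member, ATG12 was called with the length trend removed (-0.52, edgeR adjusted p = 0.0897, an alternative added after seeing the data). No other call was made among them in the alternatives that gave a gene an adjusted p. DESeq2 gave one to 1 of the 3 pathway genes, 1 of the 3 substrates and 4 of the 9 ubiquitin-like genes, and the minimum of 10 counts in every library left out HDAC1 and UBE2F. The 504 genes called became 254 with DESeq2 (93 higher and 161 lower), 304 with an adjusted p under 0.05, and 194 to 1041 with each library left out, each omission moving the count past 1.5 times: it was 298, 228 and 1041 without the siControl library of highest, middle or lowest total, and 284, 194 and 308 without the siDelta2-4 library of that rank. With library totals alone they split into 361 higher and 152 lower, against 272 and 232. The 468 transcript models called became 222 with DESeq2, 294 with an adjusted p under 0.05, and 173 to 1113 with each library left out.

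No label ties the numbers of the columns to a batch. The deviations of like-numbered columns from their group means correlated at 0.039, -0.136 and -0.0843 across genes. These values do not show a pairing but cannot decide it, since columns of unlike number were not compared. Whether like-numbered libraries were handled together is not known. With the replicate block on that number, 299 genes were called, and SUMO2 stayed at 0.56. Depth limits SUMO3, SAE1 and UBA2 most, with under 25 counts of each in any library.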
